A study of Mus musculus with 18 samples.

Results

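Collagen chain genes are described here in the colon of mice 5 weeks after a course of dextran sulfate sodium (DSS), which damages the lining of the colon. The members are the genes whose mouse symbol reads Col, a number, the letter a and a number. There were 44 of them among the 18349 genes of the table, and 25 of the 44 were expressed highly enough to be tested. Bulk RNA of the whole colon was sequenced from C57BL/6 mice, all male and all with the genotype label WT, in 18 libraries. The Control group (n = 3) drank water. All other mice drank 2.5% DSS for 7 days to set up a model of ulcerative colitis and were then gavaged for 5 weeks, at 200 µL per 10 g. The DSS group (n = 3) received PBS. The WT group (n = 4) received the ZJ316 strain of Lactobacillus plantarum, a lactic acid bacterium. The KO group (n = 4) received ZJ316-KO and the COM group (n = 4) ZJ316-COM, and neither abbreviation is spelled out in the labels. Control mice had neither DSS nor, by the labels, any gavage, so DSS and gavage cannot be told apart in a comparison with Control. Since the labels name no animal for a library, the spread behind each p-value is that between these libraries, which may be technical.

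Collagens are matrix proteins built from 3 chains wound into a triple helix, with glycine as the first of each 3 residues. Fibrillar collagens (types I, III and V among others) form the long fibrils that give the submucosa its strength, and are made mainly by fibroblasts. Type IV chains form the sheet-like network of basement membranes under epithelium and around vessels and muscle cells, with types XV and XVIII at its border with the stroma. Type VI chains form beaded filaments, and FACIT collagens (fibril-associated collagens with interrupted triple helices) sit on the surface of fibrils. Chains are hydroxylated and folded in the endoplasmic reticulum, secreted as procollagen, trimmed, and cross-linked by lysyl oxidases. Collagen gene expression rises in healing and scarring tissue, and colonic fibrosis is a known sequel of DSS injury.

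The fibrillar class is set apart in the coding sequence itself, shown here for leading members beside interrupted exons of basement membrane members. In GENCODE gene models (GRCm38) the 11 fibrillar genes each encoded an unbroken run of 216 to 344 triplets that begin with glycine, with a median of 338. They had 21 to 33 coding exons of exactly 54 bases, the length of 6 such triplets. FACIT genes had 4 to 28 exons of that length, which overlaps the fibrillar range, and basement membrane genes had 1 to 6. In the 9 basement membrane genes the longest run was 30 to 75 triplets, and the repeat was broken into 13 to 27 stretches. These ranges overlap those of the other classes, whose longest runs were 32 to 113 triplets (FACIT), 28 to 87 (beaded filament and short-chain) and 23 to 55 (transmembrane and other). One exon of 54 bases, the middle one of its gene, follows for 4 fibrillar members. One interrupted exon follows for each of 3 basement membrane members. All are coding exons in the 5′ to 3′ sense direction. Capitals mark in-frame glycine codons (GG and any base after it) that lie whole within the exon.
Col1a1 exon 26 (chr11:94944355-94944408, plus strand): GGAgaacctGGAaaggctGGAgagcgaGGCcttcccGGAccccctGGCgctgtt
Col1a2 exon 27 (chr6:4524117-4524170, plus strand): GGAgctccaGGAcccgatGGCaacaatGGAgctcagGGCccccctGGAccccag
Col3a1 exon 26 (chr1:45334761-45334814, plus strand): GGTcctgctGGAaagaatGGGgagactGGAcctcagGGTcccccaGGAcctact
Col5a2 exon 29 (chr1:45403116-45403169, minus strand): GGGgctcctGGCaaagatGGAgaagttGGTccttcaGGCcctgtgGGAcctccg
Col4a1 exon 23 (chr8:11231947-11232030, minus strand): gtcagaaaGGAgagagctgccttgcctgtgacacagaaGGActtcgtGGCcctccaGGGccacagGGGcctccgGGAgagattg
Col4a2 exon 41 (chr8:11441880-11441996, plus strand): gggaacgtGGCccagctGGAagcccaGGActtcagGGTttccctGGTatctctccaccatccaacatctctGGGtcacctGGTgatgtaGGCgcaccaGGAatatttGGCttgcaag
Col18a1 exon 21 (chr10:77070961-77071050, minus strand): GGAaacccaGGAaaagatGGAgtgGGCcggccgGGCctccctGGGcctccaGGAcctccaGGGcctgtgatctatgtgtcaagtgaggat
The 4 fibrillar exons each carry 6 glycine codons with no break. In the Col4a1 exon the spacing is lost after the first marked codon and taken up again, and in the Col4a2 exon this happens near the middle. The Col18a1 exon breaks the spacing near its 5′ end and leaves the repeat at its 3′ end.

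Values are deposited FPKM, which are fragment counts divided by transcript length and by library size, so levels can be compared between genes. The number of reads is unknown. Changes are log2 fold changes of FPKM + 1 ± SE from limma, which understate the change of low genes, and a change was called where its adjusted p (Benjamini-Hochberg, over the 13263 genes tested) was under 0.05. Levels are mean ± SD. Some libraries stood apart in marker genes. Control 3, KO 2 and DSS 3 were low in distal gut Hox genes (mean log2 level 1.15 to 2.81, against 3.60 to 4.58 elsewhere), which mark position along the gut. DSS 1, DSS 3 and KO 3 were rich in pancreatic acinar genes. Squamous epithelium markers were high in DSS 2, COM 3, WT 2, WT 4 and KO 3. Epcam, a marker of the colonic epithelium, lay at 754 to 925 FPKM in all 18 libraries, while the mean of its list was lower in DSS (given with the other marker lists).

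Of the 44 members, 23 had a mean of at least 1 FPKM over the 18 libraries, 14 of at least 5 FPKM and 7 of at least 20 FPKM. The 7 were Col3a1 (mean 99.4 FPKM), Col1a2 (49.4 FPKM), Col6a1 (44.6 FPKM), Col6a2 (36.3 FPKM), Col4a1 (35.3 FPKM), Col1a1 (32.4 FPKM) and Col4a2 (23.7 FPKM). Together they held 70.3% to 80.3% of the summed collagen FPKM of a library. The tested members were 7 of 11 fibrillar, 6 of 9 basement membrane, 4 of 9 FACIT, 6 of 10 beaded filament and short-chain, and 2 of 5 transmembrane and other genes. The test required at least 1 FPKM in at least 3 libraries. Just inside it lay Col4a6 and Col17a1, with 3 such libraries each. Just outside lay Col9a2 with 2 and Col13a1 with 1. The 19 untested members stayed at or below 1.14 FPKM, and 11 of them never reached 0.5 FPKM. Among the lowest were the cartilage chains Col2a1 (at most 0.01 FPKM) and Col10a1 (at most 0.09 FPKM). Of the cartilage and bone marker list, Matn1 and Matn3 were at most 0.07 and 0.02 FPKM, while Sox9 and Bglap were expressed highly enough to be tested. That list summed to 15.6 to 22.9 FPKM in Control and 14.4 to 28.6 FPKM in the DSS-treated libraries. The basement membrane chains Col4a3 (at most 0.16 FPKM) and Col4a4 (at most 0.14 FPKM), known from the kidney glomerulus, were near 0.

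The first question was how collagen expression differed between DSS-treated and untreated colon. Most of the tested chains were called higher in DSS and in WT and fewer in KO and COM, Col18a1 had the largest change in each of the 4 groups, and none was called lower. The summed collagen FPKM was 261 ± 52.3 (n = 3) in Control, 490 ± 83.8 (n = 3) in DSS, 486 ± 56.7 (n = 4) in WT, 406 ± 79.4 (n = 4) in KO and 393 ± 46.6 (n = 4) in COM. The highest Control library had 300.03 FPKM and the lowest of the 15 DSS-treated libraries 346 FPKM, so the sums did not overlap. Against Control, 17 of 25 tested members were called higher in DSS, where 11.6% of all tested genes were called higher and 5.31% lower. In WT the count was also 17, with 14.7% of all genes higher and 8.35% lower. It was 8 in KO (3.69% of all genes higher, 1.46% lower) and 8 in COM (5.26% higher, 2.34% lower). The mean of the 4 DSS-treated groups against Control gave 17 members, with 13.8% of all genes higher and 7.16% lower. These comparisons share the Control libraries.

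The median log2 fold change of the 25 members was 0.65 in DSS, 0.67 in WT, 0.49 in KO and 0.42 in COM. Over all genes tested the medians were 0.05, 0.05, 0.03 and 0.03. Every library of the group lay above every Control library for 18 of 25 members in DSS (19.4% of all genes), 17 in WT (17.1%), 12 in KO (8.07%) and 13 in COM (10.8%). All 15 DSS-treated libraries lay above all Control libraries for 9 members, against 4.2% of all genes. Control 3 was the lowest of the 18 libraries in 15 of the 17 members called against the mean of the 4 groups. The highest was DSS 2 in 13 of these 17 members and WT 1 in 3.

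**Figure D1:**
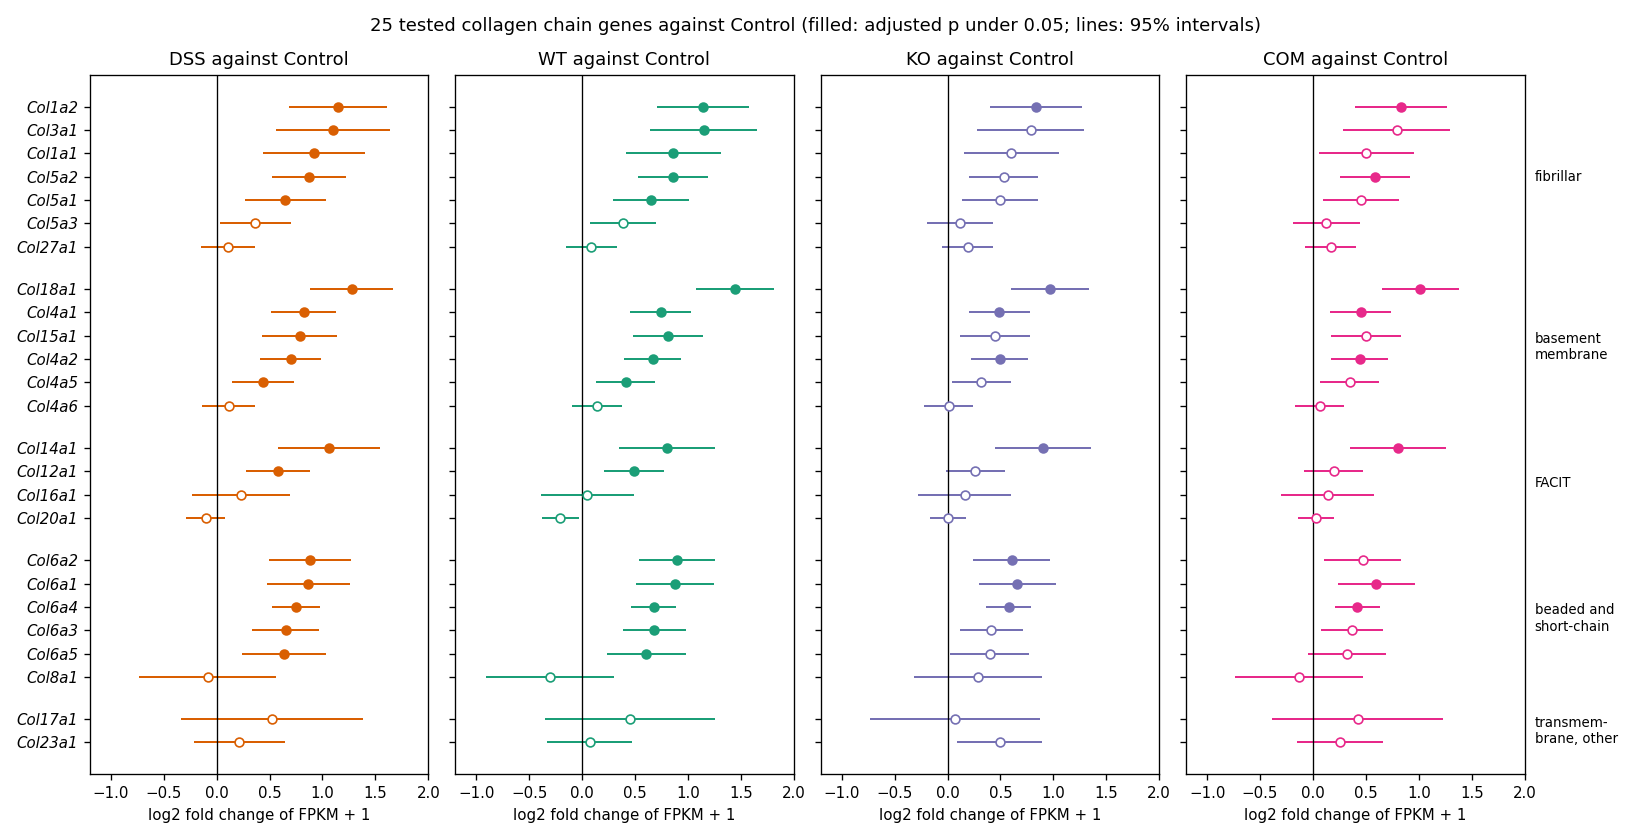
Log2 fold change of FPKM + 1 (horizontal axis) of the 25 tested collagen chain genes in each DSS-treated group against Control, with 95% confidence intervals as lines and filled points where the adjusted p was under 0.05. The members called number 17 in DSS, 17 in WT, 8 in KO and 8 in COM, all to the right of 0, and Col18a1 has the largest change in each panel.

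The members called in all 4 comparisons with Control were 7, namely Col1a2, Col4a1, Col4a2, Col6a1, Col6a4, Col14a1 and Col18a1. Col5a2 was called in all but KO, and Col6a2 in all but COM. Another 8 were called in DSS and WT alone (Col1a1, Col3a1, Col5a1, Col4a5, Col15a1, Col12a1, Col6a3 and Col6a5). A call in DSS and WT and not in KO and COM does not show that these groups differ, and the direct tests of those differences are given with the strains. The 8 members called in none were Col5a3, Col27a1, Col4a6, Col16a1, Col20a1, Col8a1, Col17a1 and Col23a1. Of the 7 called in all 4 comparisons, only Col6a4 and Col18a1 kept every call with any single library left out. Col1a2, Col4a1, Col4a2, Col6a1 and Col14a1 each lost the calls in KO and in COM under some of these omissions. So did Col5a2 in COM and Col6a2 in KO.

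Among the fibrillar genes, the type I and type III chains had the highest levels, and Col1a2 and Col3a1 the largest changes. Col3a1 (gene ID 12825, chromosome 1), the chain of type III collagen, lay at 73.8, 61.4 and 35.2 FPKM in Control 1 to 3 and at 110, 146 and 101.4 FPKM in DSS 1 to 3. It lay at 153, 118, 108 and 114 FPKM in WT 1 to 4, at 129, 74.1, 95.6 and 87.1 FPKM in KO 1 to 4, and at 86.6, 77.3, 105 and 114 FPKM in COM 1 to 4. All 15 DSS-treated libraries were above the 3 Control libraries, though KO 2 barely so, and Control 3 was far below the other Control libraries. Col3a1 rose by 1.10 ± 0.25 in DSS (adjusted p = 0.00907) and by 1.15 ± 0.23 in WT (adjusted p = 0.00349). Its change was 0.79 ± 0.23 in KO (adjusted p = 0.0636) and 0.79 ± 0.23 in COM (adjusted p = 0.0504), past the threshold in neither.

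Col1a2 (gene ID 12843, chromosome 6), the second chain of type I collagen, lay at 33.2, 31.3 and 17.6 FPKM in Control 1 to 3 and at 54.8, 73.3 and 53.0 FPKM in DSS 1 to 3. The WT libraries had 72.3, 56.6, 56.1 and 54.7 FPKM, the KO libraries 62.1, 40.0, 50.2 and 41.9 FPKM, and the COM libraries 44.2, 41.5, 50.7 and 55.7 FPKM. No DSS-treated library overlapped the Control range. Col1a2 rose by 1.15 ± 0.21 in DSS (adjusted p = 0.00365), 1.14 ± 0.20 in WT (adjusted p = 0.00162), 0.83 ± 0.20 in KO (adjusted p = 0.0279) and 0.83 ± 0.20 in COM (adjusted p = 0.0224). Without Control 3 the last pair were 0.55 and 0.55, with adjusted p of 0.0791 and 0.0754. Col1a1 (gene ID 12842, chromosome 11), which gives 2 of the 3 chains of type I collagen, lay at 24.2, 24.2 and 14.5 FPKM in Control and at 36.1, 49.8 and 34.3 FPKM in DSS. It was at 47.4, 35.7, 36.5 and 33.6 FPKM in WT, 40.4, 28.1, 32.2 and 26.8 FPKM in KO, and 25.6, 23.7, 31.6 and 38.6 FPKM in COM. COM 2 fell within the Control range, and the other DSS-treated libraries were above it. Col1a1 rose by 0.92 ± 0.22 in DSS (adjusted p = 0.012) and by 0.86 ± 0.21 in WT (adjusted p = 0.00894). Without Control 3 these were 0.69 (adjusted p = 0.0505) and 0.63 (adjusted p = 0.0501), and without DSS 2 the former was 0.76 (adjusted p = 0.058).

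**Figure D2:**
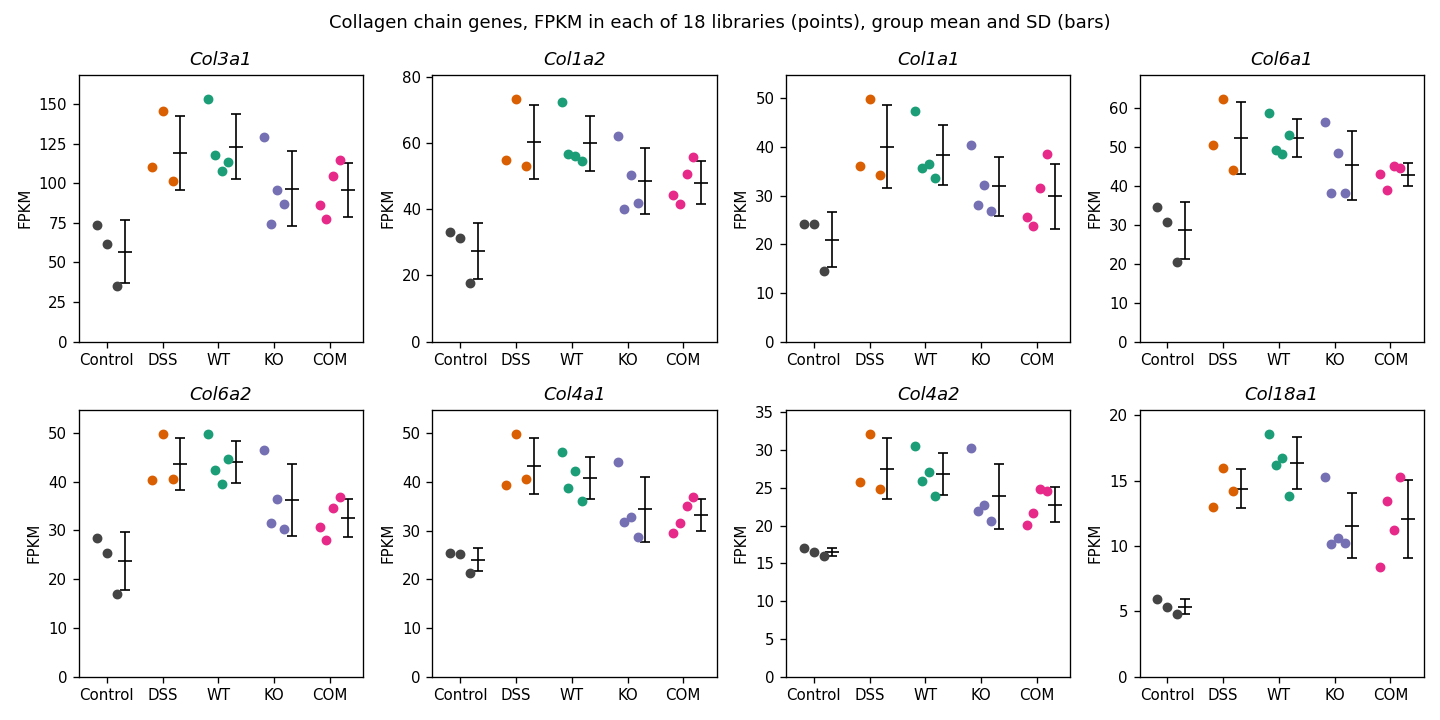
FPKM (vertical axes, from 0) of 8 collagen chain genes in each of the 18 libraries, shown as points by group, with the group mean and SD as bars. Control 3 is the lowest library in every panel, and Col18a1 shows Control libraries at 4.80 to 5.92 FPKM below DSS-treated ones at 8.40 to 18.6 FPKM.

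The type V chains, which sit inside type I fibrils and limit their width, were lower in level. Col5a2 (gene ID 12832, chromosome 1) lay at 7.71, 7.13 and 5.90 FPKM in Control and at 12.3, 16.1 and 12.2 FPKM in DSS. It was at 15.3, 13.4, 12.8 and 11.7 FPKM in WT, 13.5, 9.24, 10.4 and 8.90 FPKM in KO, and 9.80, 8.95, 11.8 and 13.3 FPKM in COM, with every one of these above Control. Col5a2 rose by 0.87 ± 0.16 in DSS (adjusted p = 0.00351), 0.86 ± 0.15 in WT (adjusted p = 0.00164) and 0.59 ± 0.15 in COM (adjusted p = 0.0275), and its change in KO was 0.53 ± 0.15 (adjusted p = 0.0553). Col5a1 (gene ID 12831, chromosome 2) lay at 7.07, 6.29 and 4.32 FPKM in Control and at 9.30, 12.1 and 7.95 FPKM in DSS. It was at 11.5, 9.30, 9.14 and 9 FPKM in WT, 10.7, 7.00, 9.43 and 7.52 FPKM in KO, and 7.77, 7.28, 9.58 and 8.83 FPKM in COM. Only KO 2 of the DSS-treated libraries reached into the Control range. Col5a1 rose by 0.65 ± 0.18 in DSS (adjusted p = 0.0217) and by 0.65 ± 0.17 in WT (adjusted p = 0.0118). Without Control 3 these were 0.47 (adjusted p = 0.0931) and 0.48 (adjusted p = 0.065), and without DSS 2 the former was 0.50 (adjusted p = 0.0991). The other fibrillar genes tested were Col5a3, at 2.25 to 4.75 FPKM over all libraries, and Col27a1, at 1.77 to 2.75 FPKM. Their changes in DSS were 0.37 ± 0.15 (adjusted p = 0.107) and 0.11 ± 0.12 (adjusted p = 0.546).

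Col18a1, a basement membrane collagen, had the largest change of the tested members. Col18a1 (gene ID 12822, chromosome 10) encodes the core protein of a heparan sulfate proteoglycan whose tail is released as endostatin, an inhibitor of vessel growth. It lay at 5.92, 5.34 and 4.80 FPKM in Control and at 13.0, 15.9 and 14.2 FPKM in DSS. The WT libraries had 18.6, 16.2, 16.8 and 13.8 FPKM, the KO libraries 15.3, 10.2, 10.6 and 10.3 FPKM, and the COM libraries 8.40, 13.4, 11.2 and 15.3 FPKM. The lowest DSS-treated library, COM 1, was still well above the highest Control library. Col18a1 rose by 1.28 ± 0.18 in DSS (adjusted p = 9.72e-04), 1.44 ± 0.17 in WT (adjusted p = 2.16e-04), 0.97 ± 0.17 in KO (adjusted p = 0.00525) and 1.02 ± 0.17 in COM (adjusted p = 0.00409). With any single library left out it stayed called in all 4 comparisons, at 0.84 to 1.52.

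Col4a1 and Col4a2 form the common type IV network. Col4a1 (gene ID 12826, chromosome 8) lay at 25.5, 25.2 and 21.3 FPKM in Control and at 39.4, 49.9 and 40.5 FPKM in DSS. It was at 46.1, 38.8, 42.2 and 36.1 FPKM in WT, 44.1, 31.8, 32.8 and 28.8 FPKM in KO, and 29.5, 31.5, 35.0 and 36.8 FPKM in COM. Every DSS-treated library was above Control, and the DSS and WT libraries were above all of COM except that WT 4 was below COM 4. Col4a1 rose by 0.82 ± 0.14 in DSS (adjusted p = 0.00241), 0.74 ± 0.13 in WT (adjusted p = 0.00173), 0.49 ± 0.13 in KO (adjusted p = 0.0435) and 0.45 ± 0.13 in COM (adjusted p = 0.0471). Col4a2 (gene ID 12827, chromosome 8) lay at 17.1, 16.4 and 15.9 FPKM in Control and at 25.7, 32.2 and 24.8 FPKM in DSS. It was at 30.5, 25.9, 27.1 and 23.9 FPKM in WT, 30.3, 21.9, 22.7 and 20.7 FPKM in KO, and 20.1, 21.7, 24.8 and 24.6 FPKM in COM, all above Control. Col4a2 rose by 0.70 ± 0.13 in DSS (adjusted p = 0.00363), 0.67 ± 0.12 in WT (adjusted p = 0.00204), 0.49 ± 0.12 in KO (adjusted p = 0.0312) and 0.44 ± 0.12 in COM (adjusted p = 0.0402).

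Col15a1 (gene ID 12819, chromosome 4), the relative of Col18a1 that links basement membranes to fibrils, lay at 5.76, 5.47 and 4.09 FPKM in Control and at 8.10, 11.4 and 9.07 FPKM in DSS. It was at 10.6, 8.91, 9.29 and 9.71 FPKM in WT, 10.1, 5.49, 7.41 and 6.74 FPKM in KO, and 7.28, 7.15, 7.38 and 8.49 FPKM in COM. KO 2 was the single DSS-treated library within the Control range. Col15a1 rose by 0.79 ± 0.16 in DSS (adjusted p = 0.00573) and 0.81 ± 0.15 in WT (adjusted p = 0.00229), and its changes in KO and COM were 0.45 ± 0.15 (adjusted p = 0.0998) and 0.50 ± 0.15 (adjusted p = 0.0558). Col4a5 ranged from 0.98 to 2.50 FPKM and rose by 0.44 ± 0.13 in DSS (adjusted p = 0.037) and 0.41 ± 0.13 in WT (adjusted p = 0.0292). After quantile normalization the Col4a5 changes were 0.20 and 0.25, no longer called, and with a pseudocount of 0.1 FPKM they were 0.66 and 0.62. Without Control 3 the Col4a5 changes were 0.31 and 0.28, with adjusted p of 0.154 and 0.158. The call in DSS was also lost without any 1 of the DSS libraries, and that in WT without WT 1, WT 2 or WT 4. Its neighbour Col4a6 ranged from 0.55 to 1.23 FPKM and had a change of 0.11 ± 0.11 in DSS (adjusted p = 0.51).

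Type VI chains, which form beaded filaments around cells and are abundant in muscle and stroma, rose together in DSS and WT. Col6a1 (gene ID 12833, chromosome 10) lay at 34.6, 30.8 and 20.4 FPKM in Control and at 50.3, 62.2 and 43.9 FPKM in DSS. It was at 58.7, 49.1, 48.0 and 53.1 FPKM in WT, 56.3, 38.1, 48.5 and 38.1 FPKM in KO, and 43.0, 38.8, 45.0 and 44.6 FPKM in COM, all above Control. Col6a1 rose by 0.86 ± 0.18 in DSS (adjusted p = 0.00599), 0.88 ± 0.17 in WT (adjusted p = 0.00258), 0.66 ± 0.17 in KO (adjusted p = 0.0348) and 0.60 ± 0.17 in COM (adjusted p = 0.0413), and without Control 3 the COM value was 0.38 (adjusted p = 0.15). Col6a2 (gene ID 12834, chromosome 10) lay at 28.5, 25.5 and 16.98 FPKM in Control and at 40.4, 49.8 and 40.5 FPKM in DSS. It was at 49.8, 42.4, 39.6 and 44.6 FPKM in WT, 46.6, 31.5, 36.4 and 30.3 FPKM in KO, and 30.8, 28.1, 34.6 and 36.9 FPKM in COM. COM 2 lay just under Control 1, and every COM library was below every DSS and WT library. Col6a2 rose by 0.88 ± 0.18 in DSS (adjusted p = 0.00515), 0.90 ± 0.17 in WT (adjusted p = 0.00212) and 0.61 ± 0.17 in KO (adjusted p = 0.0468), and its change in COM was 0.47 ± 0.17 (adjusted p = 0.0944). Without Control 3 the KO value was 0.39 (adjusted p = 0.15).

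Col6a3 (gene ID 12835, chromosome 1), the third chain of the classical type VI molecule, lay at 7.84, 7.09 and 6.56 FPKM in Control and at 11.5, 14.7 and 9.72 FPKM in DSS. It was at 13.2, 11.5, 11.3 and 12.4 FPKM in WT, 11.4, 9.92, 11.02 and 7.52 FPKM in KO, and 8.74, 8.54, 10.4 and 10.5 FPKM in COM. Of the DSS-treated libraries only KO 4 was within the Control range. Col6a3 rose by 0.65 ± 0.14 in DSS (adjusted p = 0.00821) and 0.68 ± 0.14 in WT (adjusted p = 0.00317), with changes of 0.41 ± 0.14 in KO (adjusted p = 0.09) and 0.37 ± 0.14 in COM (adjusted p = 0.106). Col6a4 and Col6a5 encode chains that can take the place of the third chain. Col6a4 had a mean of 1.40 ± 0.31 FPKM in Control, 3 ± 0.10 in DSS, 2.81 ± 0.14 in WT, 2.56 ± 0.32 in KO and 2.19 ± 0.24 in COM, with no overlap between Control (at most 1.65 FPKM) and the rest (at least 1.91 FPKM). Col6a4 rose by 0.75 ± 0.10 in DSS (adjusted p = 7.99e-04), 0.68 ± 0.10 in WT (adjusted p = 5.25e-04), 0.58 ± 0.10 in KO (adjusted p = 0.00399) and 0.42 ± 0.10 in COM (adjusted p = 0.0178). After quantile normalization its change in COM was 0.27, no longer called, and with a pseudocount of 0.1 FPKM it was 0.63. Together with Col18a1 it was called in all 4 comparisons with any single library left out. Col6a5 had means of 0.56 ± 0.30 FPKM in Control and 1.39 ± 0.18 in DSS and rose by 0.63 ± 0.18 (adjusted p = 0.0271), a value that was 1.31 with a pseudocount of 0.1 FPKM and 0.34, no longer called, after quantile normalization. In WT its change was 0.61 ± 0.17 (adjusted p = 0.0194), and these alternatives gave 1.26 and 0.39, the latter no longer called. Without Control 3 the Col6a5 changes were 0.46 (adjusted p = 0.116) and 0.43 (adjusted p = 0.106).

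FACIT genes split by member. Col14a1 (gene ID 12818, chromosome 15) lay at 1.87, 1.61 and 1.46 FPKM in Control, 4.34, 6.37 and 3.25 FPKM in DSS, 4.90, 2.10, 3.88 and 4.08 FPKM in WT, 4.91, 3.34, 4.55 and 3.17 FPKM in KO, and 3.67, 4.39, 3.44 and 3.07 FPKM in COM. All DSS-treated libraries were above Control, WT 2 by the smallest margin. Col14a1 rose by 1.06 ± 0.22 in DSS (adjusted p = 0.00615), 0.80 ± 0.21 in WT (adjusted p = 0.0133), 0.90 ± 0.21 in KO (adjusted p = 0.0244) and 0.81 ± 0.21 in COM (adjusted p = 0.0289). Col12a1 (gene ID 12816, chromosome 9), which like Col14a1 decorates type I fibrils, lay at 3.40, 3.87 and 4.55 FPKM in Control and at 5.84, 7.78 and 5.59 FPKM in DSS. It was at 6.30, 6.08, 6.05 and 5.26 FPKM in WT, 6.28, 4.75, 4.75 and 4.05 FPKM in KO, and 4.62, 4.13, 4.42 and 5.41 FPKM in COM. DSS and WT were apart from Control, and KO and COM reached into its range. Col12a1 rose by 0.58 ± 0.14 in DSS (adjusted p = 0.0111) and 0.49 ± 0.13 in WT (adjusted p = 0.0137), and without DSS 2 the former was 0.45 (adjusted p = 0.0555). Col16a1 ranged from 3.86 to 9.65 FPKM, both extremes in Control, with a change of 0.23 ± 0.22 in DSS (adjusted p = 0.487). Col20a1 ranged from 1.52 to 2.47 FPKM, with changes of -0.10 ± 0.08 in DSS (adjusted p = 0.413) and -0.21 ± 0.08 in WT (adjusted p = 0.0631).

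The counts in KO and COM depended on which libraries were in the fit. Shares of all genes called with libraries left out are not given here. A loss of calls among all genes therefore cannot be told from one particular to the collagen genes. The number of members called in KO, 8 with all libraries, was 2 without KO 1, 2 without KO 3, 3 without Control 2 and 3 without Control 3, and these need not be among the 8. In COM the number was 3 without Control 2, 2 without Control 3, 4 without COM 2, 2 without COM 3 and 3 without COM 4. When only the groups compared entered the fit, so that the other groups did not help to estimate the spread, 13 members were called in WT, where 7.66% of all genes were, and 0 in DSS, KO and COM, where 0%, 0.0151% and 0.113% of all genes were. In DSS against Control 2643 genes had an unadjusted p under 0.05 in that fit. Without the 3 acinar-rich libraries 11 members were called in DSS, 17 in WT, 2 in KO and 4 in COM. That leaves DSS with DSS 2 alone, the library with the highest collagen sum (585 FPKM), which is assumed to vary like the libraries of the other groups. Without the 3 libraries low in Hox genes these counts were 15, 15, 3 and 2, and without the 5 squamous-rich libraries 4, 11, 3 and 0.

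Ratios between chains within a library do not depend on the scaling of that library. The ratio of Col1a1 to Col1a2 FPKM was 0.731, 0.771 and 0.823 in Control 1 to 3 and 0.571 to 0.704 in the 15 DSS-treated libraries, with no overlap. The ratio of Col18a1 to Col15a1 was 0.976 to 1.17 in Control and 1.15 to 1.88 in the others, where COM 1 alone (1.15) reached into the Control range. Col4a1 to Col4a2 was 1.33 to 1.63 and Col6a1 to Col6a2 1.08 to 1.40 over all 18 libraries. Col6a3 to Col6a1 was 0.322 in Control 3 and at most 0.261 elsewhere. The ratios were picked after the values were seen and are given without a test.

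**Figure D3:**
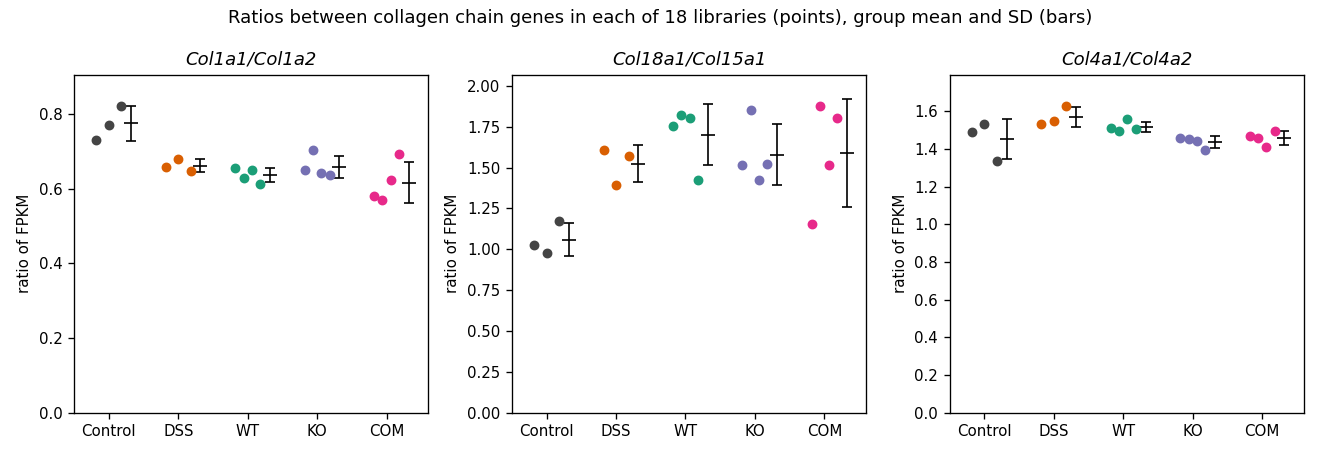
Ratio of FPKM between 2 collagen chain genes (vertical axes, from 0) in each of the 18 libraries, as points by group with group mean and SD as bars. Col1a1/Col1a2 is higher in all Control libraries (0.731 to 0.823) than in the rest (0.571 to 0.704), while Col4a1/Col4a2 lies between 1.33 and 1.63 in every library.

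The second question was whether the gavaged strain made a difference to collagen expression after DSS. No member was called in any of the 6 comparisons between DSS-treated groups in limma. Few genes were called in these at all, namely 0% in WT against DSS, 0.166% in KO against DSS, 0.0151% in COM against DSS, 0.829% in KO against WT, 0.00754% in COM against WT and 0.0302% in COM against KO. At an unadjusted p under 0.05 there were 0 of 25 members in WT against DSS (4.77% of all genes), 4 in KO against DSS (16.3%) and 5 in COM against DSS (11%). There were 7 in KO against WT (20.1%), 8 in COM against WT (11.2%) and 0 in COM against KO (10.8%). The changes were below 0 for 16 of 25 members in WT against DSS, 21 in KO against DSS and 22 in COM against DSS. Over all genes tested the median changes were -0.003, -0.027 and -0.017 in the same order. The share of all genes below 0 is not given here, so these counts do not show a lowering particular to collagen genes. The comparisons with DSS share its 3 libraries, of which DSS 2 had the highest collagen sum of all.

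In COM against DSS every COM library lay below every DSS library for 5 members, Col4a1, Col4a2, Col6a2, Col6a4 and Col12a1, where 9% of all genes did so. Col6a4 had the smallest p, with a change of -0.33 (95% interval -0.53 to -0.13, adjusted p = 0.249). Col12a1 followed at -0.38 (interval -0.66 to -0.11, adjusted p = 0.308) and Col4a1 at -0.37 (interval -0.65 to -0.09, adjusted p = 0.33). In COM against WT the groups were likewise apart, with COM lower, for Col6a1, Col6a2, Col6a3, Col6a4 and Col15a1, against 5.69% of all genes. Col6a2 changed there by -0.43 (interval -0.75 to -0.10, adjusted p = 0.347). In KO against WT the smallest p was that of Col18a1, at -0.48 (interval -0.81 to -0.15, adjusted p = 0.118). In WT against DSS, Col18a1 changed by 0.17 (interval -0.19 to 0.53), Col3a1 by 0.05 (interval -0.45 to 0.55) and Col4a1 by -0.08 (interval -0.36 to 0.20). These intervals do not show that WT and DSS were alike. In a fit of KO and WT alone, Col8a1 (0.59 ± 0.11, adjusted p = 0.0362) and Col23a1 (0.42 ± 0.09, adjusted p = 0.047) were called higher in KO, where 3.52% of all genes were called in either direction. With all 18 libraries in the fit the Col8a1 change had an adjusted p of 0.217 and that of Col23a1 0.191.

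**Figure D4:**
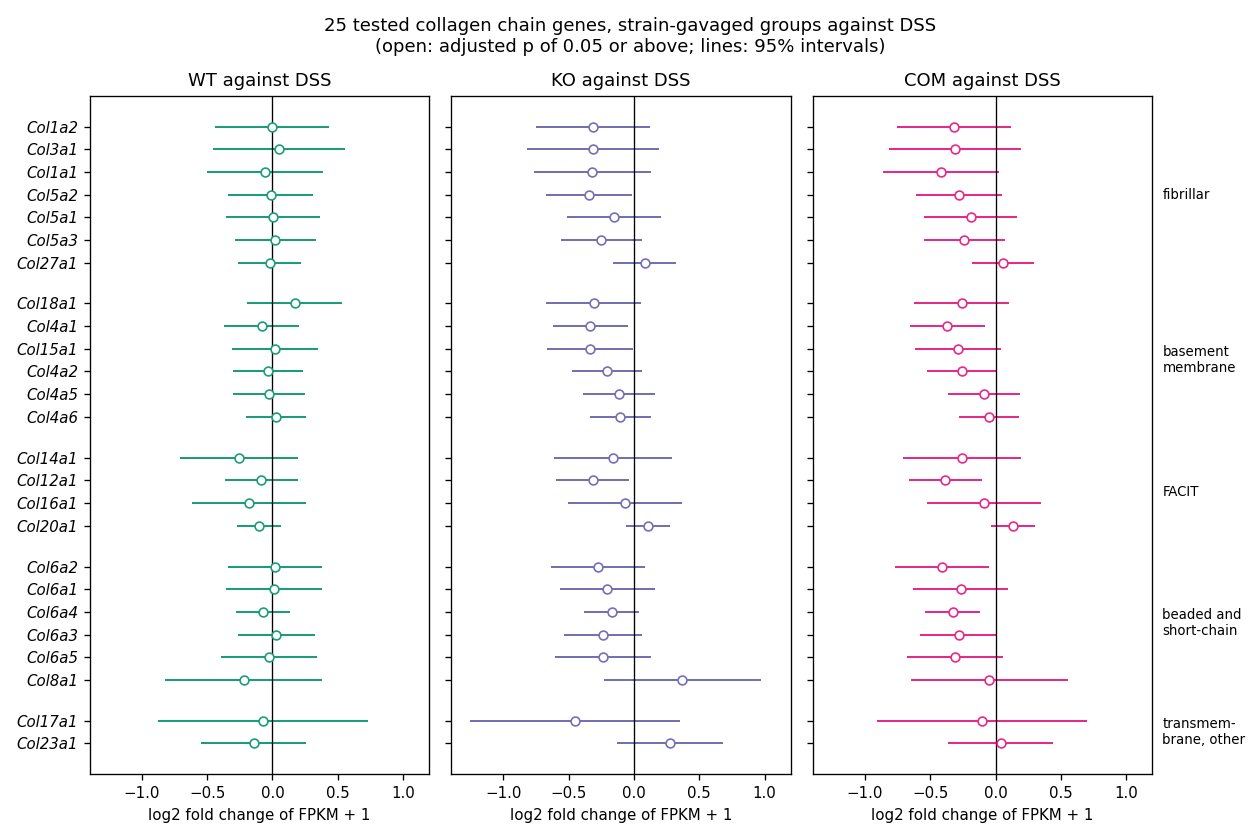
Log2 fold change of FPKM + 1 (horizontal axis) of the 25 tested collagen chain genes in the WT, KO and COM groups against DSS, with 95% confidence intervals as lines and open points because no adjusted p was under 0.05. Points lie to the left of 0 for 16 members in WT, 21 in KO and 22 in COM. The median change over all tested genes was also below 0 in each comparison (-0.003, -0.027 and -0.017).

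Genes that act on collagen were read from lists, in each comparison with Control, and in the counts a gene rose or fell where it was called. Over all tested genes, the share called higher was 11.6% in DSS, 14.7% in WT, 3.69% in KO and 5.26% in COM. The share called lower was 5.31%, 8.35%, 1.46% and 2.34% in the same order. The count of 1 of 16 in KO and in COM below is near these shares. Of the genes for hydroxylation, folding and chaperoning of collagen chains, 6 of 16 tested rose in DSS, 5 in WT, 1 in KO and 1 in COM, the last pair both Fkbp10 (0.54 ± 0.11 in KO, adjusted p = 0.0134, and 0.50 ± 0.11 in COM, adjusted p = 0.0173), a folding factor of procollagen. In DSS these included Serpinh1, the collagen chaperone HSP47 (35.1 ± 3.75 FPKM in Control, 53.2 ± 3.51 in DSS, change 0.59 ± 0.15, adjusted p = 0.018), and the lysyl hydroxylase Plod2 (0.60 ± 0.13, adjusted p = 0.00851). P4ha1, a prolyl hydroxylase subunit, fell in KO against Control (-0.35 ± 0.09, adjusted p = 0.0375) and was lower in KO than in DSS (-0.49 ± 0.09, adjusted p = 0.0399), and P4ha1 and Plod2 were lower in KO than in WT (-0.53 ± 0.08, adjusted p = 0.0183, and -0.56 ± 0.12, adjusted p = 0.0429). P4ha1 and Plod2 were the only genes called in any comparison between DSS-treated groups among the 88 tested genes of the 7 pathway lists. Of the genes for export, trimming and crosslinking, 9 of 13 rose and 1 fell (Sec23a, -0.23) in DSS, and 6 rose in WT, 5 in KO and 5 in COM. Lox, a lysyl oxidase, went from 1.2 ± 0.36 FPKM in Control to 4.73 ± 1.27 in DSS and rose by 1.38 ± 0.23 (adjusted p = 0.00238). Adamts2, which trims the amino end of procollagen, rose by 0.86 ± 0.16 (adjusted p = 0.0035).

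Of the collagen receptors 5 of 8 rose in DSS, 3 in WT, 0 in KO and 2 in COM, including Lair1, an inhibitory receptor of leukocytes (0.80 ± 0.17, adjusted p = 0.00576), and Mrc2, a receptor that takes up collagen fragments (0.57 ± 0.14, adjusted p = 0.0129), both in DSS. Of 17 fibril-associated matrix genes 10 rose in DSS, 10 in WT, 4 in KO and 6 in COM. The proteoglycans biglycan and decorin led, with Bgn at 52.0 ± 16.6 FPKM in Control and 140.4 ± 21.2 in DSS (change 1.45 ± 0.21, adjusted p = 0.00103) and Dcn at 91.7 ± 29.9 and 235 ± 45.8 FPKM (1.39 ± 0.24, adjusted p = 0.00267). Of 13 laminin, nidogen and basement membrane proteoglycan genes 9 rose and 1 fell (Agrn, -0.32) in DSS, and 10 rose in WT, 5 in KO and 7 in COM, among them Lamb1 (1.06 ± 0.15 in DSS, adjusted p = 9.37e-04) and Lama4 (0.87 ± 0.13, adjusted p = 0.00122). Of 9 genes for collagen-degrading enzymes and their inhibitors 6 rose in DSS, 6 in WT, 4 in KO and 5 in COM. They included the collagenase Mmp13 (1.39 ± 0.28 in DSS, adjusted p = 0.00539) and the gelatinase Mmp2 (1.16 ± 0.19, adjusted p = 0.00206). Of 12 genes of TGF-beta signalling, a known inducer of collagen transcription, 6 rose in DSS, 7 rose and 1 fell (Tgfb2, -0.46) in WT, 4 rose in KO and 5 in COM. The ligand Tgfb1 rose by 0.70 ± 0.17 in DSS (adjusted p = 0.0125) and the receptor Tgfbr2 by 0.73 ± 0.13 (adjusted p = 0.00268). Beside the counts of these lists, 11.6% of all tested genes were called higher in DSS, 14.7% in WT, 3.69% in KO and 5.26% in COM.

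Fibroblast and endothelial markers rose with the collagen genes, while several smooth muscle markers fell in DSS, WT and COM. In bulk tissue, more cells of a type and more RNA per cell cannot be told apart. Over all tested genes, 11.6% were called higher in DSS, 14.7% in WT, 3.69% in KO and 5.26% in COM. The shares called lower were 5.31%, 8.35%, 1.46% and 2.34% in the same order. A count of 1 in a list of 10, as for the colonic epithelium below, is near such shares. Of 10 fibroblast markers, 10 rose in DSS, 9 in WT, 9 in KO and 8 in COM. Of these, 3 (Dcn, Fbln1 and Lum) are also in the fibril-associated list. Their mean log2(FPKM + 1) was 2.94 to 3.48 in Control and 3.93 to 4.49 in the DSS-treated libraries. Of 10 endothelial markers 10 rose in DSS, 10 in WT, 10 in KO and 8 in COM, and their mean went from 2.02 to 2.16 in Control to 2.60 to 3.03 in the others. Of 7 macrophage markers 7 rose in DSS, 7 in WT, 0 in KO and 6 in COM. Of 10 smooth muscle markers 4 fell in DSS, 7 in WT, 0 in KO and 3 in COM, and the means were 7.27 to 7.45 in Control and 6.71 to 7.29 in the others. Of 6 pericyte markers 2 rose in each group, and 1 fell in WT. Of 8 markers of enteric glia and neurons 4 fell in DSS, 6 in WT, 0 in KO and 1 in COM, and their mean was 2.20 to 2.68 in Control and 1.81 to 2.13 in DSS. Of 10 colonic epithelium markers 1 (Vil1) fell in DSS and in WT and 1 (Krt18) rose in KO. Their mean was 8.73 to 9.40 in Control, 8.38 to 8.65 in DSS, 8.48 to 8.74 in WT, 8.85 to 9.29 in KO and 8.74 to 9.07 in COM, so that the DSS libraries all lay below Control. The mean log2(FPKM + 1) of the 25 tested collagen genes was 2.52 to 2.74 in Control and 2.94 to 3.49 in the DSS-treated libraries. The collagen mean minus the fibroblast mean was -0.79 to -0.42 in Control and -1.15 to -0.79 in the others. Such a difference depends on the marker list chosen, since the smooth muscle mean, for example, did not rise with the collagen mean. The part of cell composition in the collagen changes was not tested.

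**Figure D5:**
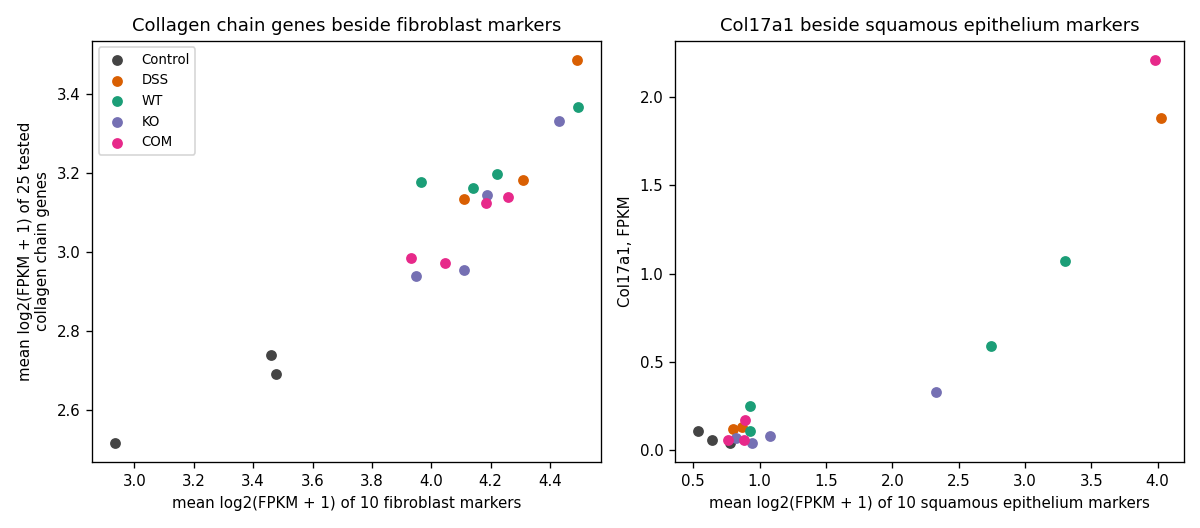
Left, mean log2(FPKM + 1) of the 25 tested collagen chain genes against that of 10 fibroblast markers, and right, Col17a1 in FPKM against the mean log2(FPKM + 1) of 10 squamous epithelium markers, with 1 point per library coloured by group. The 3 Control libraries are lowest on both axes at left, and at right the 5 libraries with squamous means of 2.33 to 4.02 have the 5 highest Col17a1 values.

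Col17a1, Col8a1 and Col23a1 were called in none of the comparisons with Control. Col17a1 (gene ID 12821, chromosome 19), a transmembrane collagen of the hemidesmosomes of stratified epithelia, lay at 2.21 FPKM in COM 3, 1.88 FPKM in DSS 2, 1.07 FPKM in WT 2, 0.59 FPKM in WT 4 and 0.33 FPKM in KO 3. It was at most 0.25 FPKM in the other 13 libraries. The 5 high libraries were those with the highest mean of the squamous epithelium markers (3.98, 4.02, 3.30, 2.75 and 2.33 in the same order, and at most 1.08 elsewhere). Its change in DSS was 0.52 ± 0.40 (adjusted p = 0.387). Col8a1, a short-chain network collagen of vessel walls, lay at 1.01, 2.46 and 5.83 FPKM in Control 1 to 3, a spread that covered all other libraries. Control 3, the lowest library for most leading chains and also the lowest in the Hox genes, was thus the highest for Col8a1. The low chains Col11a1 (0.50 FPKM) and Col25a1 (0.67 FPKM) were highest there too. Col23a1, a transmembrane collagen, ranged from 0.68 FPKM in Control 1 to 2.91 FPKM in COM 2.

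Several members are neighbours in the genome (RefSeq coordinates, GRCm38.p6). Col3a1 and Col5a2 lie 24.6 kb apart on chromosome 1, Col6a2 and Col6a1 85.2 kb apart on chromosome 10, and Col6a5 and Col6a4 27.9 kb apart on chromosome 9. Each of these pairs rose in DSS and in WT. Col4a6 and Col4a5 lie 1.27 kb apart on chromosome X, and of these Col4a5 was called and Col4a6 was not. Col4a1 and Col4a2 are transcribed away from each other from starts that overlap. The stretch between the starts of their annotated promoter entries is shown because both genes rose and start there, with capitals for the motif GGGCGG, the core of the GC box.
Col4a2 start to Col4a1 start (chr8:11312805-11312826, plus strand): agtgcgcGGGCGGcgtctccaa
In the 250 bases before the start, searched on both strands in RefSeq promoter entries (GRCm38), GGGCGG was found in 15 of the 23 windows of 21 tested members (65.2%), and in 32.7% of all windows of that length. CCAAT was found in 9 of the 23 (39.1%, against 33.8% of all) and TATAAA in 2 (8.7%, against 12.4% of all). The windows of all genes were not limited to tested genes as those of the members were, so the shares are of unlike sets. The matches are of letters and were not tested. Col1a1, Col5a2, Col12a1 and Col14a1 were not matched to an entry.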

How the data were processed

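Whole-colon RNA was sequenced on the DNBSEQ platform, per the labels' protocols. Deposited by the authors were FPKM for 18349 genes by NCBI gene ID in 18 libraries. The submitters' processing notes name the build mm10 (GRCm38), and the aligner and the program behind the FPKM were not given in the sources used here. Groups were taken from the titles. Symbols and coordinates came from RefSeq (GRCm38.p6), with 18230 IDs matched and 119 not, and exons from GENCODE gene models of the same build.

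The members and gene lists were chosen with earlier results of these data known. FPKM are normalized values, so no count test was used. Values were taken as log2(FPKM + 1), and the 13263 genes that reached 1 FPKM in 3 or more libraries were fitted in limma 3.58.1 (R 4.3.3), after a check on simulated data, as 1 model of 5 groups with a mean-variance trend. The 10 pairwise contrasts and the mean of the 4 DSS-treated groups against Control were tested two-sided, with Benjamini-Hochberg adjustment within each. Values in every library are given for members with a mean of at least 20 FPKM, or called with a higher group averaging at least 5 FPKM, and for Col14a1, added after seeing the values, as were the patterns of Col17a1 and Col8a1. Up to 4 genes were named per list, called ones with the largest change first. A gene that this rule takes is not reported here. P4ha1, Plod2, Fkbp10, Sec23a, Agrn and Tgfb2 were named for small counts where they fell outside this rule.

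Depth is unknown. Steps between low values, compared over 295 genes, differed by relative sizes of 0.977 to 1.01, and only steps of similar size were compared. Library totals were 517933 to 558590 FPKM, with 16446 to 16859 genes above 0, and at most 2.65% of values were identical between a pair of libraries. The alternatives tried were other pseudocounts, filters and scalings, only the groups compared, a replicate block, a fold threshold, and libraries left out.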

Additional observations from a re-analysis of the deposited data

Results flagged for a closer look

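In the groups of 4 libraries, 54 sets of values of named members were checked for a single library far from the other 3, and 5 were beyond the limit of Dixon's test (0.829 of the range). Chance alone gives about 1 in 20 for independent sets that were not picked by their values. Here the sets share libraries, and some members, Col17a1 among them, were added after the values were seen. The count of 5 can therefore not be set against that share. Col17a1 stood apart in COM 3 (2.21 FPKM, others 0.06 to 0.17) and in KO 3 (0.33 FPKM, others 0.04 to 0.08), both squamous-rich libraries. Col18a1 stood apart in KO 1 (15.25 FPKM, others 10.16 to 10.57). WT 1 stood apart for Col1a2 (72.34 FPKM, others 54.68 to 56.64) and for Col5a1 (11.45 FPKM, others 9 to 9.3). KO 1 and WT 1 had the highest summed collagen FPKM of their groups, at 517 and 570.5.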

How the results depend on the processing

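In all, 67 called values of single members against Control were recomputed under the alternatives, which gave 1276 values. Of these 1059 stayed called, 217 did not, and 0 changed direction. The counts of called members (17 in DSS, 17 in WT, 8 in KO, 8 in COM and 17 for the mean of the 4 groups) moved by over 1.5 times as follows. Requiring a log2 fold change of at least 1 in size left 4, 3, 0, 1 and 1. Only the groups compared in the fit left 0 in DSS, KO and COM, and gave 2 in KO against WT, where the full fit had 0. Quantile normalization left 3 in COM. Without the acinar-rich libraries, which leaves DSS with DSS 2 alone, there were 11 in DSS, 2 in KO and 4 in COM. Without those low in Hox genes there were 3 in KO and 2 in COM. Without the squamous-rich libraries, which leaves DSS with 2, there were 4 in DSS, 11 in WT, 3 in KO and 0 in COM. Without single libraries the range was 12 to 17 in DSS, 14 to 19 in WT, 2 to 11 in KO, 2 to 12 in COM and 13 to 17 for the mean of the 4 groups, and 0 in every comparison between DSS-treated groups. The members called with each single library left out were 12 of 17 in DSS, 13 of 17 in WT, 2 of 8 in KO, 2 of 8 in COM and 12 of 17 for the mean. Deviations of same-numbered libraries had a median correlation of 0.01 over 33 pairs, 13 of them above 0.1. For different numbers the median was -0.03 over 96 pairs, 33 of them above 0.1. Of 18 libraries, 3 correlated best with their own number. No clear pairing by number was seen, but this check cannot exclude one. With the replicate block, 16 members were called in DSS, 17 in WT, 3 in KO, 3 in COM and 17 for the mean. The causes of these movements were not tested, except that a fold threshold can only remove calls. Shares of all genes called are not given beside these counts, so they do not show that collagen genes lost more calls than other genes. The pooled comparison was not run with only the groups compared, as it uses all groups. Changes of genes under about 1 FPKM depend on the pseudocount, and the unknown depth leaves the counting error of low members unknown.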
